A study of Homo sapiens with 6 samples.

Results

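The genes described here are the expressed LINC genes of LNCaP cells, that is, genes whose symbol is LINC followed by digits, the naming scheme for long intergenic noncoding RNAs. They were chosen by the summed raw count over all 6 libraries, which had to reach 60, and this left 103 of the 569 LINC genes among the 23354 genes of the table. A further 248 LINC genes had no count in any library. LNCaP is an androgen-sensitive human prostate cancer line that carries its own androgen receptor. All cells received dihydrotestosterone (DHT), a potent natural androgen, at 1 nM for 48 h. In 3 libraries, the DHT group, nothing else is named in the labels. In the other 3, the DHT+WBM group, white button mushroom (WBM) extract was added at 3 µL/mL over the same 48 h. The labels do not say whether DHT cells received a vehicle, nor whether the 3 libraries of a group were grown as separate cultures. The p-values therefore rest on the spread among libraries of a group, and that spread may be technical. The single comparison of the design, DHT+WBM against DHT, asks what the extract does to LNCaP expression in the presence of androgen.

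Long intergenic noncoding RNAs are transcribed by RNA polymerase II from promoters of their own, are usually capped, spliced and polyadenylated, and code for no known long protein. Some act on the gene next to them, some bind proteins or microRNAs elsewhere in the cell, and for many no function is known. They are as a rule less abundant and more restricted to certain cell types than messenger RNAs. In prostate cancer cells several are known to respond to androgen or to bind the androgen receptor. LINC numbers are provisional names, and some of these genes have since been renamed, in part because a small protein was found.

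The name was checked against position and annotation. Overlap was read in the hg19 coordinates of the deposited table, among genes with a count in at least 1 library. There, 83 of the 103 genes overlapped no other gene. Of the rest, 11 overlapped a gene on the same strand and 9 only on the opposite strand. Thus at least 19.4% were not intergenic in this table. The same overlap was found for 26.8% of the 13412 genes with a summed count of at least 60. In RefSeq 102 of the 103 symbols were matched (19 of them as a synonym), of which 96 are listed as long noncoding and 6 as protein-coding. The 6 are LINC00094 (BRD3OS), LINC00116 (MTLN), LINC00634 (SMIM45), LINC00959 (C10orf143), LINC00998 (SMIM30) and LINC01207 (SMIM31), so RefSeq does not class these as noncoding. LINC00950 is only a synonym of TMEM8B there, which has its own row in the deposited table, and was left unmatched. GENCODE, a second annotation, listed 67 of the 103 genes as lincRNA, 11 as processed transcript, 7 as antisense and 5 as protein-coding. It listed 3 as transcribed unprocessed pseudogenes, 2 as transcribed unitary pseudogenes and 1 as TEC, and 7 had no type there. All 7 antisense genes overlapped no other gene with a count in the deposited table, so the 19.4% does not include them. The 103 genes lie on 22 chromosomes, with 12 on chromosome 1. Their length in the table ranged from 0.515 to 11.866 kb with a median of 2.563 kb.

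The libraries held 19127357 to 21490953 counts, and each of the 103 genes was detected in all 6. The prostate markers KLK3 (611 to 1728 CPM), KLK2, FOLH1, TMPRSS2 and HOXB13 were high in every library, where CPM stands for counts scaled to a common library total with edgeR's TMM factors. The basal epithelial marker KRT5 had no count, and TP63, the leukocyte marker PTPRC and the endothelial marker PECAM1 had at most 3 counts in a library. The fibroblast marker COL1A1 was at 9.89 to 11.6 CPM, and its part in the results was not tested.

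The LINC genes were mostly scarce. Their summed counts ranged from 60 to 16614 with a median of 256, and the 5 genes with the most counts held 41.5% of the counts of the 103 genes. The mean level was 0.488 to 135 CPM with a median of 2.08 CPM. Per length, as RPKM (CPM per kilobase of the gene length in the table), 53 of 103 were under 1 and 10 were over 10, with a median of 0.924. Just inside the threshold were LINC00552, LINC01134 and LINC01016 with 64, 61 and 60 counts. Just outside were LINC01136 and LINC02159 with 57 each and LINC00933 with 55. LINC02159 had 4, 1 and 2 counts in the DHT libraries and 22, 7 and 21 in the DHT+WBM libraries, so a gene with a large difference between the groups lies just under the threshold. A summed count that is largely from 1 group can also carry a gene over it, as for LINC00900 with 15 counts in DHT and 60 in DHT+WBM. Of the 103 genes, 95 had at least 30 counts in each group and 8 did not. Some of these 8 were more balanced, such as LINC01134 with 37 and 24 counts.

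With WBM extract, 25 LINC genes were higher, 17 were lower and 61 did not pass the test (edgeR quasi-likelihood test, Benjamini-Hochberg adjusted p under 0.05 over 13466 tested genes). The share called was 40.8%, against 58.2% of all tested genes (29.2% of all tested genes were higher and 29% lower). Changes of at least 2-fold with a call were found in 15 LINC genes, 8 higher and 7 lower, which is 14.6% against 5.7% of all tested genes. With at least 30 counts in each group, 11 of 95 genes (11.6%) had such a call. The libraries of the groups did not overlap for 54 LINC genes, or 52.4%, against 62.2% of all tested genes. Among the 95 genes with at least 30 counts in each group, 22 were higher and 16 lower. RNA was measured in bulk, so fewer cells with a transcript and less of it per cell cannot be told apart.

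These shares moved with the level of the genes. Of 25 LINC genes with a mean under 1 CPM, 9 were called (36%, against 36.9% of all tested genes of that level). Of 44 at 1 to under 5 CPM, 16 were called (36.4% against 48.1%), and of 34 at 5 CPM or more, 17 were (50% against 61.7%). The shares with a call and at least 2-fold were 28% against 25%, 15.9% against 13.8% and 2.94% against 2.74% in the same order. In the lowest class the 28% are 7 genes, and 4 of them had under 30 counts in 1 group, so they reached the summed count through the group where they are high. The share called at any size was near the background in the lowest class and below it in the other classes. The median log2 fold change of the LINC genes was -0.04, beside 0.00 for all tested genes. Their median size of change regardless of sign was 0.35 against 0.21 on the log2 scale, and the median standard error (SE) was 0.20 against 0.06. Within the level classes, from the lowest up, the median sizes were 0.61 against 0.56, 0.39 against 0.40 and 0.19 against 0.18.

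**Figure D1:**
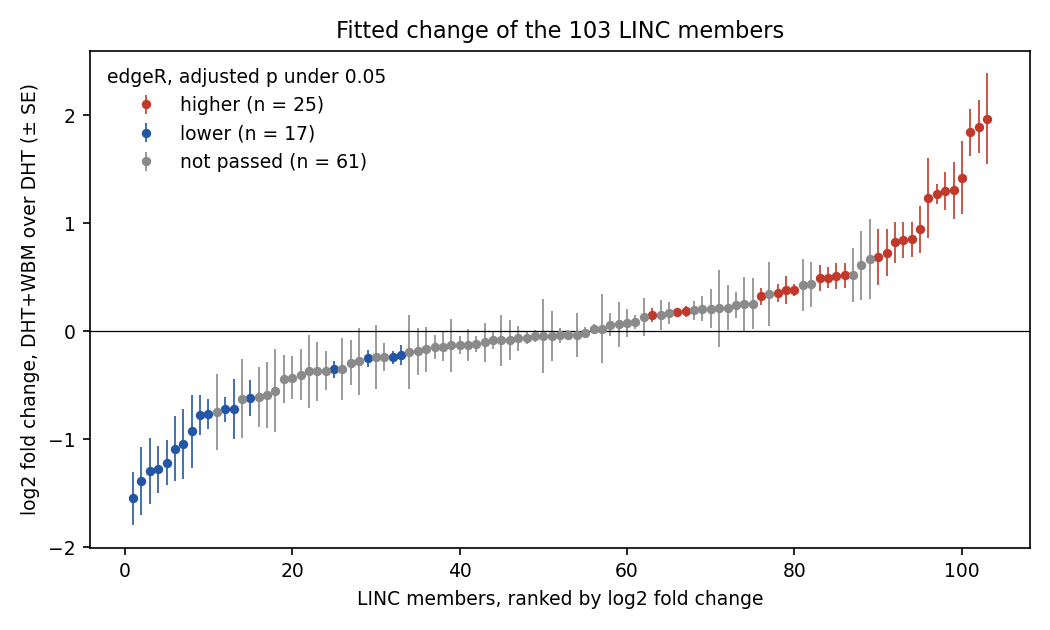
Fitted log2 fold change (DHT+WBM over DHT, y axis, bars ± SE) of the 103 LINC genes, ranked along the x axis and coloured by call. The 25 higher genes reach 1.97 and the 17 lower genes reach -1.55, and uncalled genes with wide bars lie between called ones.

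**Figure D2:**
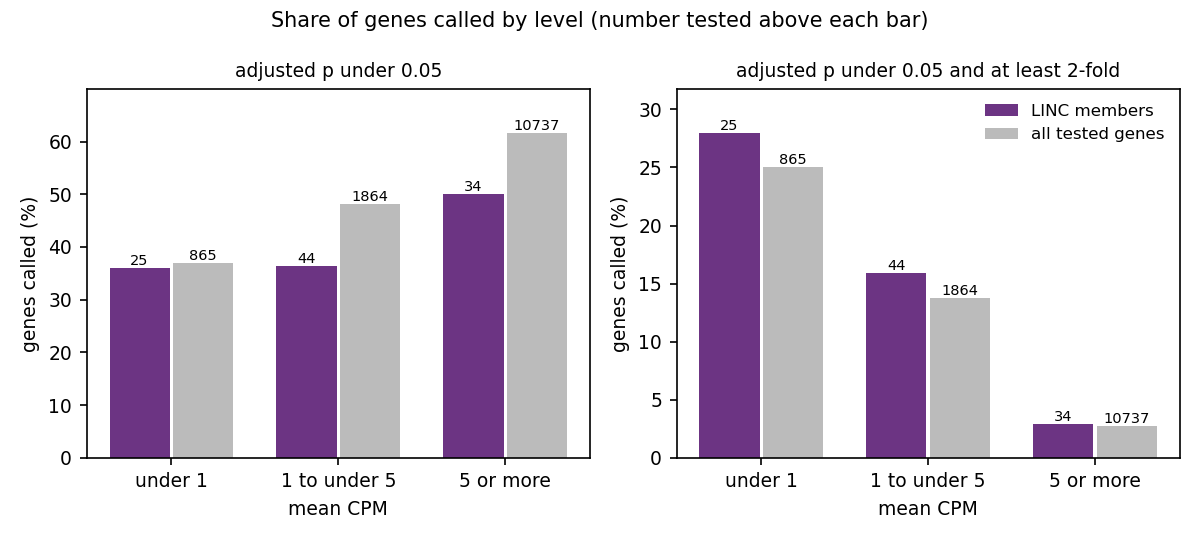
Share of genes called (y axis, percent) by mean CPM class (x axis) for the LINC genes and all tested genes, at any size of change (left) and at 2-fold or more (right), with the number tested above each bar. At 2-fold or more the paired bars are of like height in each class, from 28% and 25% down to 2.94% and 2.74%.

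**Figure D3:**
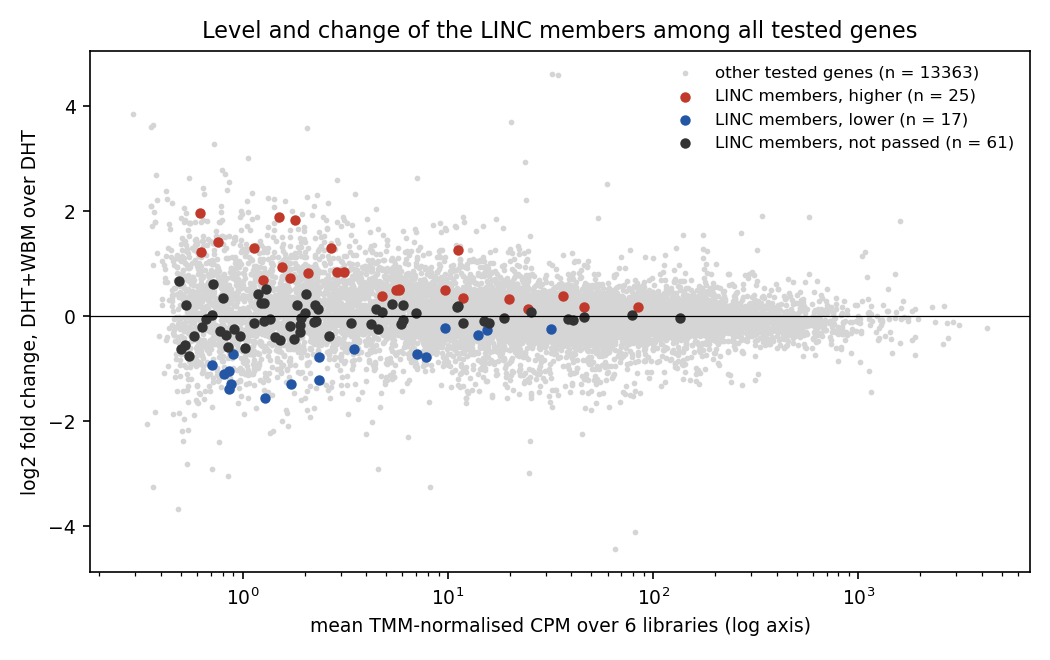
Log2 fold change (y axis) against mean CPM over the 6 libraries (x axis, log scale) for the 103 LINC genes, coloured by call, and the other tested genes in grey. Of the 34 LINC genes at 5 CPM or more, 1 was called with at least a 2-fold change.

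Summed over all 103 genes, the LINC level was 914, 929 and 926 CPM in the DHT libraries and 953, 966 and 949 CPM in the DHT+WBM libraries. Every DHT+WBM library was above every DHT library, with means of 923 ± 8.09 and 956 ± 9.04 (SD, n = 3), a ratio of 1.04. The sum rests on few genes. LINC01278, LINC01184, LINC00886 and LINC00667 added 10.1, 9.64, 9.31 and 5.85 CPM to it, and LINC00963, LINC01000, LINC01024 and LINC00161 changed it by -5.25, -4.0, -3.5 and -3.44 CPM.

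Among called LINC genes of at least 1 CPM whose groups were separate, a choice that fixes the lack of overlap in the 10 rises and 10 falls given here, LINC01366 (hg19 chr5:169758435-169762104, plus strand) rose the most. It was at 0.477, 0.805 and 0.634 CPM in DHT and 2.14, 2.16 and 2.81 CPM in DHT+WBM, a log2 fold change of 1.89 ± 0.25 (SE, adjusted p = 2.32e-08). All 3 DHT+WBM libraries lay far above the highest DHT library. LINC00346 (chr13:111516334-111522655, minus strand), renamed PRECSIT and described as a p53-regulated RNA that activates STAT3 in carcinoma cells, had 0.716, 0.755 and 0.877 CPM in DHT. In DHT+WBM it had 3.07, 2.62 and 2.76 CPM, a log2 fold change of 1.84 ± 0.22 (adjusted p = 2.66e-09). The windows around the transcription start are shown for the 3 largest of these rises, and below for the 3 largest of these falls, where the promoter table holds them. The 300 bases (250 before to 50 after the start) are from RefSeq, GRCh38.p14, at chr13:110870259-110870558, minus strand, for LINC00346 and at chr16:66408274-66408573, plus strand, for LINC00920, which is described next. Capitals mark the motifs searched: in LINC00346 1 CCAAT box read as ATTGG on the other strand and 2 antioxidant response element cores (TGACNNNGC), both read on the other strand. LINC00920 holds none of the motifs.
LINC00346: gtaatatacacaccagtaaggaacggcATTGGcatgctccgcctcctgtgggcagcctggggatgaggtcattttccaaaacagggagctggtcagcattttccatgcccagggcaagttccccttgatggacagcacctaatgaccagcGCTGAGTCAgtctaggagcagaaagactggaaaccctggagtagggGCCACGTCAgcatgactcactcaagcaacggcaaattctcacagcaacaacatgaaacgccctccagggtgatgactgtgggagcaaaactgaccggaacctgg
LINC00920: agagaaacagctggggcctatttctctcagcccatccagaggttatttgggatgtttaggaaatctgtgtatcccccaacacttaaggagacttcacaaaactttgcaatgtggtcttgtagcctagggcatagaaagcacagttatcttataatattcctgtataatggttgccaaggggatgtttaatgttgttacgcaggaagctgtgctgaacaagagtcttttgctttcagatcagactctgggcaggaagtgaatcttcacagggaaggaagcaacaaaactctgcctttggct

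LINC00886 (chr3:156465132-156534851, minus strand) was the LINC gene with the smallest adjusted p. Its levels were 6.64, 6.44 and 6.73 CPM in DHT and 15.5, 14.9 and 17.3 CPM in DHT+WBM, a log2 fold change of 1.27 ± 0.09 (adjusted p = 5.30e-15). It rested on 405 and 985 counts and was the only LINC gene at 5 CPM or more with a call and at least a 2-fold change. LINC01270 (chr20:48909257-48931456, plus strand) had 1.81, 1.21 and 1.61 CPM in DHT and 3.99, 3.90 and 3.54 CPM in DHT+WBM (1.29 ± 0.18, adjusted p = 5.79e-08). LINC00920 (chr16:66442427-66444803, plus strand) had 0.573, 0.805 and 0.585 CPM in DHT and 1.90, 1.54 and 1.43 CPM in DHT+WBM (1.30 ± 0.26, adjusted p = 5.59e-05). In both, the lowest DHT+WBM library exceeded the highest DHT library, which the choice of genes required.

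The other 5 of the 10 largest rises among called genes of at least 1 CPM with separate groups were under 2-fold. LINC01060 rose by 0.94 ± 0.22, LINC01094 by 0.85 ± 0.16, LINC00910 by 0.84 ± 0.17 and LINC00853 by 0.73 ± 0.22 on the log2 scale. LINC00673, also known as SLNCR, is an RNA described in growth and invasion of cancer cells and reported to bind the androgen receptor. It was at 1.34, 1.51 and 1.66 CPM in DHT and 2.68, 2.77 and 2.53 CPM in DHT+WBM, and rose by 0.82 ± 0.19 (adjusted p = 0.000295).

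The largest fall was that of LINC01207 (chr4:165675283-165724947, plus strand), which RefSeq lists as the protein-coding gene SMIM31 of a small integral membrane protein. Its levels were 2.10, 1.71 and 1.90 CPM in DHT and 0.731, 0.667 and 0.552 CPM in DHT+WBM, a log2 fold change of -1.55 ± 0.25 (adjusted p = 1.56e-06). The highest DHT+WBM library was below the lowest DHT library, which the choice of genes required. LINC01089 (chr12:122233173-122241390, minus strand), also called LIMT and described as an inhibitor of metastasis in breast cancer, had 2.96, 2.26 and 2.10 CPM in DHT. In DHT+WBM it had 1.12, 0.924 and 0.966 CPM (-1.28 ± 0.22, adjusted p = 4.30e-06). LINC00641 (chr14:21668238-21675059, minus strand) had 4.2, 3.22 and 2.44 CPM in DHT and 1.17, 1.90 and 1.2 CPM in DHT+WBM (-1.22 ± 0.21, adjusted p = 4.67e-06). The DHT libraries of LINC00641 were spread widely, and their separation from the DHT+WBM libraries was required by the choice of genes. The windows around the starts lie at GRCh38.p14 chr4:164753881-164754180, plus strand, for LINC01207, at chr12:121802897-121803196, minus strand, for LINC01089 and at chr14:21206851-21207150, minus strand, for LINC00641. Capitals mark 1 TATAAA in LINC01207 and 3 CCAAT boxes in LINC01089, 2 of them read as ATTGG. In LINC00641 they mark 1 CCAAT box read as ATTGG and 1 androgen receptor half-site AGAACA.
LINC01207: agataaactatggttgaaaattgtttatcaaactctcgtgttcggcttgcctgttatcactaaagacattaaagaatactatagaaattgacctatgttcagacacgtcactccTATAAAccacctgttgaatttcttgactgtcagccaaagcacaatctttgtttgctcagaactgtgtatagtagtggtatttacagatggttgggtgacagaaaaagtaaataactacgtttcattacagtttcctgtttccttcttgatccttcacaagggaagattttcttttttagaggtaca
LINC01089: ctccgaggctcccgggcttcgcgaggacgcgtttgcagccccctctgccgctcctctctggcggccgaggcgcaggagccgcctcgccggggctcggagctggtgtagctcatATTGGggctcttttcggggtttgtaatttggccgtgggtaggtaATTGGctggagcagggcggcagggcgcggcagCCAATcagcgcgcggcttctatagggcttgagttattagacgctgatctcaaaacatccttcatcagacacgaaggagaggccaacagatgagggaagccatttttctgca
LINC00641: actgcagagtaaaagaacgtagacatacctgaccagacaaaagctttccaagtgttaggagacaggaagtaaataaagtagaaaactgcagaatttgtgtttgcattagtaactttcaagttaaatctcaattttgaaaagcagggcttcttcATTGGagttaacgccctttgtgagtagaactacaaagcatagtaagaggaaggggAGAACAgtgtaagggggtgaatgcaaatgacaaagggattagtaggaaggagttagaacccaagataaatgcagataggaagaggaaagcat

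No more than 10 falls met the choice of at least 1 CPM and separate groups, and the other 7 of them were under 2-fold. LINC01144, with overlapping groups, and several genes under 1 CPM lie outside it. These are given below and fell by more than some of the 10. LINC01024, renamed MALINC1 for its association with mitosis, had 7.54, 10.2 and 8.68 CPM in DHT and 5.70, 4.52 and 5.71 CPM in DHT+WBM (-0.72 ± 0.12, adjusted p = 1.90e-06). LINC01000 lies in a duplicated stretch of chromosome 7, where reads can be credited to another copy. It had 13.2, 8.0 and 8.24 CPM in DHT and 6.72, 6.21 and 4.46 CPM in DHT+WBM (-0.77 ± 0.14, adjusted p = 1.60e-05). DHT replicate 1 stood well above the other DHT libraries, and without it the log2 fold change was -0.49 (adjusted p = 0.00189). LINC00963, described in the passage of prostate cancer cells to androgen-independent growth, had 35.6, 32.6 and 35.3 CPM in DHT and 30.3, 29.9 and 27.6 CPM in DHT+WBM. This is a small fall of 0.24 on the log2 scale (SE 0.06, adjusted p = 0.000737). LINC00898 was lower by a log2 fold change of -0.77 ± 0.19, LINC00161 by -0.35 ± 0.08 and LINC00960 by -0.25 ± 0.08. LINC01003 was at -0.22 ± 0.09 with an adjusted p of 0.0420, and this call was lost with DESeq2 (adjusted p = 0.138), upper-quartile factors (0.0831) and library totals only (0.112). It was also lost without DHT replicate 2 (0.177) and when replicate 1 or 3 of DHT+WBM was left out (0.0501 and 0.168).

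**Figure D4:**
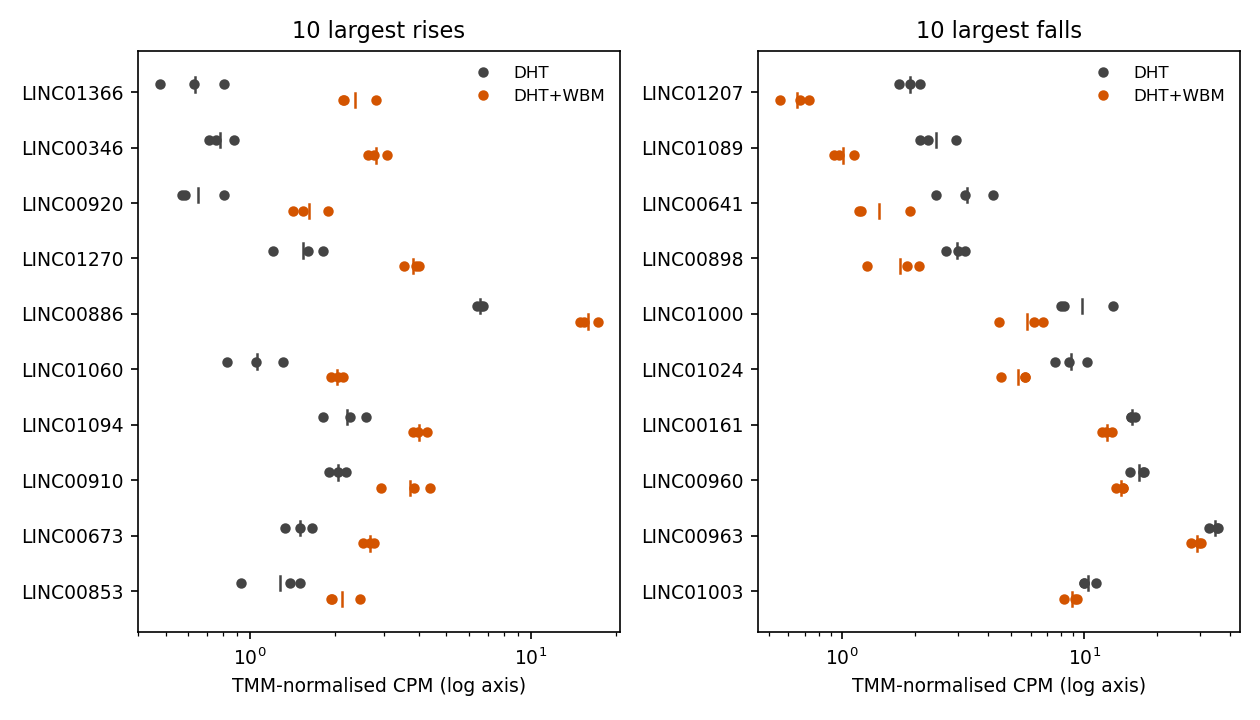
CPM in each library (x axis, log scale) for the 10 largest rises (left) and the 10 falls (right) among called LINC genes of at least 1 CPM with separate groups. DHT is in grey, DHT+WBM in orange and the mean of each group is a short line. The groups are separate in all 20 genes by the rule that chose them, widely for LINC01366 and LINC00346 and narrowly for LINC01003.

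Under 1 CPM, 3 LINC genes were higher and 6 lower, and these calls rest on few counts. LINC00900 had 15 counts in DHT and 60 in DHT+WBM, with 0.286, 0.252 and 0.195 CPM against 0.536, 1.64 and 0.782 CPM (1.97 ± 0.42, adjusted p = 0.000130). DHT+WBM replicate 2 was the highest by far. LINC00235 had 25 and 68 counts (1.42 ± 0.34), and LINC00884 had 23 and 55 (1.23 ± 0.37) with overlapping groups. Without DHT replicate 1, LINC00884 was at 1.97 (adjusted p = 0.000355). Of the lower genes, LINC00940 had 76 and 29 counts (-1.39 ± 0.31), LINC00941 had 76 and 31 (-1.29 ± 0.30) and LINC00571 had 68 and 32 (-1.09 ± 0.30). LINC00242, LINC01465 and LINC00319 were at -1.04, -0.93 and -0.72. The call of LINC00242 was lost without DHT replicate 2 (adjusted p = 0.0578). That of LINC01465 was lost without DHT replicate 2 (-0.57, adjusted p = 0.200) and without DHT+WBM replicate 1 (0.0984). LINC00319 kept its call only without DHT replicate 2 among the 6 fits that each left out 1 library, with adjusted p of 0.0537 to 0.0956 in the others. With DESeq2 the calls of LINC01465 and LINC00319 were also lost.

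Smaller rises were found among LINC genes with many counts, where the SE was small. LINC01184, a divergent transcript renamed SLC12A2-DT, was at 31.7, 33.8 and 29.7 CPM in DHT and 39.4, 42.6 and 42.2 CPM in DHT+WBM (0.38 ± 0.06, adjusted p = 5.24e-07). LINC01278 was at 76.9, 79.7 and 80.4 CPM and 91.4, 89.7 and 86.3 CPM (0.17 ± 0.04, adjusted p = 0.000931). LINC00667 was at 42.1, 42.6 and 44.4 CPM and 48.4, 51.4 and 46.8 CPM (0.18 ± 0.05, adjusted p = 0.00310). In all 3 genes each DHT+WBM library was above each DHT library. LINC00847, LINC00294, LINC02210, LINC01569, LINC01530 and LINC01547 rose by 0.32, 0.35, 0.49, 0.49, 0.51 and 0.52 on the log2 scale, also with no overlap. LINC00174, in a duplicated region, rose by 0.38 ± 0.13 (adjusted p = 0.0118), and this call was lost with DESeq2 (0.0661) and without DHT replicate 3 (0.25, adjusted p = 0.117). LINC01124 rose by 0.69 ± 0.26 (adjusted p = 0.0219) with overlapping groups. Its call was lost with DESeq2 and without DHT replicate 2 (adjusted p = 0.0844). Leaving out replicate 1 of DHT+WBM gave 0.43 (adjusted p = 0.218), and leaving out replicate 3 gave an adjusted p of 0.0575. LINC01144 fell by 0.62 (SE 0.17, adjusted p = 0.00175), with 4.15, 3.62 and 4.97 CPM in DHT and 2.44, 2.10 and 3.68 CPM in DHT+WBM, where the last value reached into the DHT range.

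The highest levels per length were those of LINC00998, at 66.7, 73.0 and 68.7 RPKM in DHT and 69.1, 70.8 and 71.7 RPKM in DHT+WBM. It is the gene of SMIM30, a small membrane protein, so the most abundant LINC transcript per length is listed as a messenger RNA. It did not pass the test, with a log2 fold change of 0.02 and a 95% interval of -0.07 to 0.11. LINC00467, an RNA described in cancer cell growth, followed at 30.8 ± 0.549 RPKM in DHT and 34.1 ± 1.49 in DHT+WBM (SD, n = 3). Its rise of 0.15 ± 0.06 was close to the threshold (adjusted p = 0.0450). The call was lost with DESeq2 (0.127), with no low-count filter (0.0905) and when any 1 of the 6 libraries was left out (0.0520 to 0.225). LINC01278 was at 27.4 ± 0.644 and 30.9 ± 0.892 RPKM, LINC00938 at 18.9 ± 0.943 and 18.02 ± 0.245, and LINC00665 at 18.4 ± 1.05 and 17.8 ± 0.639. LINC00161 was at 18.2 ± 0.336 RPKM in DHT and 14.2 ± 0.645 in DHT+WBM. In DHT these last 3 genes lay within each other's spread, and in DHT+WBM all libraries of LINC00161 were below those of the other two.

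Several LINC genes with many counts were measured closely and did not pass. LINC00674 had 132, 141 and 137 CPM in DHT and 131, 132 and 137 CPM in DHT+WBM, with a 95% interval of the log2 fold change of -0.12 to 0.05. LINC00094 had 46.3 ± 1.81 and 45.8 ± 1.35 CPM (interval -0.12 to 0.09). LINC00938 had 41.5 ± 2.07 and 39.7 ± 0.539 CPM (interval -0.18 to 0.04). Of the 61 uncalled LINC genes, 26 had an interval within 0.5 of 0 on the log2 scale, and for 9 it reached 1 or more in size. For these 9 a 2-fold change was not excluded at this depth. The libraries of the groups did not overlap in 16 of the 61. Called or not, this held for 52.4% of the LINC genes and 62.2% of all tested genes.

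The LINC genes were also read by role, from lists of named RNAs. The calls stand beside a background of 40.8% called among all 103 LINC genes and 58.2% among all tested genes. Of a list of 11 LINC symbols since given to small proteins, 4 were in the table, 2 reached the summed count of 60, and neither passed in edgeR: LINC00998 and LINC00116, the gene of mitoregulin, a peptide of the inner mitochondrial membrane. Of these genes 0 had an unadjusted p under 0.05, and 0 passed with DESeq2 or limma-voom. Of the genes that RefSeq lists as protein-coding, the list does not hold LINC01207 (SMIM31), which was lower. Nor does it hold LINC00634 (SMIM45), LINC00094 (BRD3OS) or LINC00959 (C10orf143), which did not pass. LINC00116 was at 10.4 ± 1.81 CPM in DHT and 11.8 ± 1.15 in DHT+WBM (0.17 ± 0.10, adjusted p = 0.142), and it moved with single libraries: 0.30 without DHT replicate 1 (adjusted p = 0.0167), 0.05 without DHT replicate 2 (0.688) and 0.09 without DHT+WBM replicate 1 (0.504). Of 7 RNAs described in prostate cancer cells, 6 were in the table and 2 reached 60 counts: LINC00963 was lower, and LINC00992 did not pass (1.30 ± 0.236 and 1.23 ± 0.121 CPM). Of 16 RNAs described in growth or genome stability of cancer cells, 14 were in the table and 8 reached 60 counts. In that list LINC00346, LINC00673 and LINC00467 were higher, LINC00641 was lower, and LINC01133, LINC00662, LINC00472 and LINC00665 did not pass. Of 17 LINC genes in duplicated regions, 12 were in the table and 3 reached 60 counts: LINC01000 was lower, LINC00174 was higher and LINC00842 did not pass (-0.59 ± 0.31, adjusted p = 0.0959). LINC00842 passed with limma-voom (-0.69, adjusted p = 0.04996) and without DHT+WBM replicate 3 (-1.11, adjusted p = 0.00939), and was at -0.36 without DHT+WBM replicate 2 (adjusted p = 0.371). Of the 6 genes that RefSeq lists as protein-coding, 1 was lower and 5 did not pass.

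Other noncoding classes are given as a description only, with no test between classes. Of 248 tested antisense genes (symbol ending in -AS and digits), 59 were higher and 57 lower. Of 15 tested small nucleolar RNA host genes (SNHG), 12 were lower and 3 did not pass, and the median log2 fold change was -0.90. Of 15 tested microRNA host genes, 1 was higher and 5 lower. In this order the shares called were 46.8%, 80% and 40%, against 40.8% of LINC genes and 58.2% of all tested genes. Of all tested genes 29.2% were higher and 29% lower. The median levels were 2.92, 9.12 and 3.22 CPM, against 2.08 CPM for the LINC genes, and the share called moved with the level. LINC genes moved in both directions, as the antisense genes and all tested genes did. The SNHG genes that passed were all lower.

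The 20 LINC genes that overlap another gene with a count held 4 of the 25 higher genes and 1 of the 17 lower ones, and 15 did not pass. The share called was 40.8% for all 103 LINC genes and 58.2% for all tested genes. Whether counting used the strand is not given in the sources used here, so a read from an overlap may have been credited to the gene on the other strand. LINC00847 overlaps HEIH on the opposite strand, and both were higher (0.32 and 0.46). LINC00294 overlaps TCP11L1 on its own strand, and both were higher (0.35 and 0.22). LINC01619 overlaps BTG1, an antiproliferative gene, on the same strand. BTG1 was lower (334 and 208 CPM, -0.69), and LINC01619 did not pass, at 1.12 ± 0.0596 and 1.34 ± 0.265 CPM (0.26, adjusted p = 0.369). LINC01578, renamed CHASERR for its known repression of the neighbouring chromatin remodeller CHD2, did not pass (24.8 ± 1.82 and 26.3 ± 1.56 CPM, 0.09 ± 0.07), while CHD2 was higher (98.6 and 119 CPM, 0.27). LINC00242 was lower and LINC00574, which overlaps it on the opposite strand, did not pass (0.21, 95% interval -0.52 to 0.94).

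Head-to-head pairs, in which the gene on the opposite strand starts within 2000 bases and reads away, were found for 14 LINC genes. Of these 5 were higher, 2 lower and 7 uncalled, where 40.8% of all 103 LINC genes and 58.2% of all tested genes were called. In 9 distinct pairs both genes were tested, and the signs of the changes matched in 6 (66.7%), against 57.1% of 945 such pairs of other tested genes. Both genes were called in 2 pairs. LINC01089 and SETD1B, which encodes a histone H3K4 methyltransferase, have starts 1248 bases apart and were both lower (-1.28 and -0.20). LINC00235 was higher (1.42) and CAPN15, 449 bases away, was lower (-0.31). LINC01184 was higher while SLC12A2, a sodium, potassium and chloride cotransporter 184 bases away, did not pass (204 and 195 CPM, -0.06). LINC01137, renamed LITATS1, did not pass (5.58 ± 0.613 and 6.45 ± 0.408 CPM, 0.21 ± 0.11), while ZC3H12A, which encodes an RNase of inflammatory transcripts 75 bases away, was higher (57.6 and 92.1 CPM, 0.68). The 71 bases between LINC00526 and LINC00667 separate an uncalled gene (-0.29) from a higher one (0.18).

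Every LINC gene was set beside its nearest tested gene outside the LINC genes, at a median distance of 18.2 kb, against 4.26 kb for other tested genes. The signs of the changes matched in 67 of 103 pairs (65.0%), against 53.2% of 13359 pairs of other tested genes. Where the genes overlap, and reads may be shared, 13 of 16 pairs matched (81.2% against 54.9%). Without overlap, 17 of 28 matched within 10 kb (60.7% against 53.8%) and 37 of 59 over 10 kb (62.7% against 51.7%). The pairs include LINC00950 and TMEM8B, which RefSeq lists as a single gene. Where both genes were called, 19 of 28 pairs matched (67.9% against 54.1%). Across pairs, Pearson's r was 0.09 and Spearman's rho 0.19 for the LINC genes, and 0.10 and 0.08 for the others. These are descriptions across genes that share the same 6 libraries, and some genes occur in more than 1 pair.

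The neighbours of the 10 largest rises of at least 1 CPM with separate groups were higher in 6 cases and uncalled in 4. Of all tested genes 29.2% were higher. With 10 neighbours this is a description only. CEBPB, a transcription factor of stress and inflammation 100.03 kb from LINC01270, went from 31.8 ± 2.09 to 47.9 ± 2.24 CPM (0.59, adjusted p = 2.25e-11). PDZK1IP1, a membrane protein gene 3.25 kb from LINC00853, went from 54.3 ± 1.43 to 70.9 ± 1.09 CPM (0.38, adjusted p = 5.84e-09). LCP2 near LINC01366 (0.48), BMP2K near LINC01094 (0.38) and SLC39A11 near LINC00673 (0.25) were also higher. ANKRD10, 8.23 kb from LINC00346, did not pass (10.8 ± 0.998 and 12.2 ± 0.835 CPM, 0.18), nor did TK2 near LINC00920, PA2G4P4 within LINC00886 or FRG1, 1339 kb from LINC01060.

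The neighbours of the 10 falls of at least 1 CPM with separate groups went both ways: 4 were lower, 3 higher and 3 uncalled. Among all tested genes 29% were lower and 29.2% higher, so these counts are near the background. SETD1B, CALU near LINC01000 (-0.21), PURA near LINC01024 (-0.33) and NTMT1 near LINC00963 (-0.15) were lower. FAM218A near LINC01207 (0.38), TBC1D22A near LINC00898 (0.42) and KMT2C near LINC01003 (0.17) were higher. HNRNPC, an abundant RNA-binding protein gene 2.24 kb from LINC00641, did not pass (302 ± 11 and 317 ± 2.71 CPM, 0.07), and N6AMT1 near LINC00161 and ZNF717 near LINC00960 did not either.

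**Figure D5:**
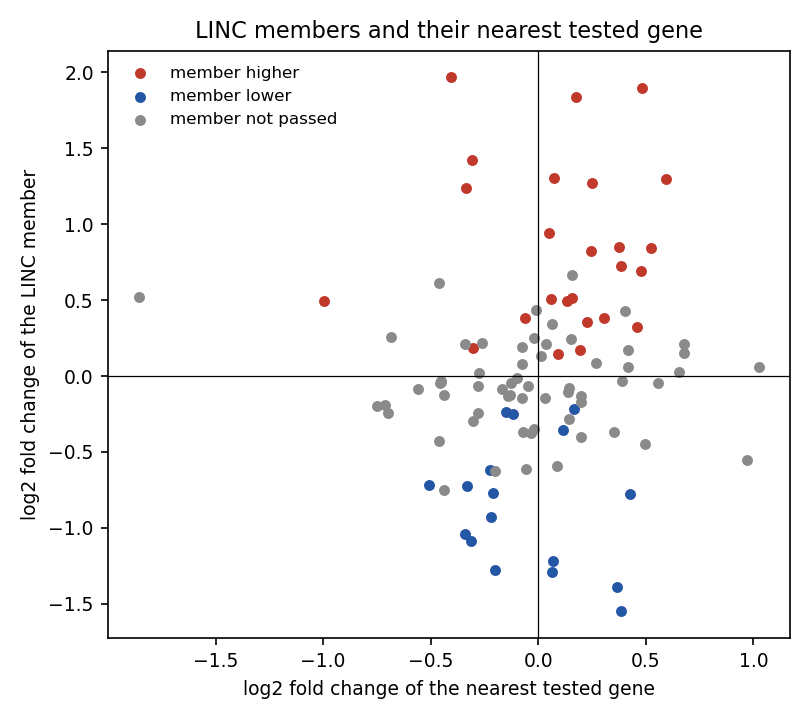
Log2 fold change of each of the 103 LINC genes (y axis) against that of its nearest tested gene (x axis), coloured by the call of the LINC gene. The points spread over all 4 quadrants, and 67 of the 103 lie where the signs match.

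Promoter windows of 300 bases (RefSeq, GRCh38.p14) were found for 82 of the 103 genes, 22 higher, 14 lower and 46 uncalled. Their median GC content was 59.2%, against 58.3% for all 27305 windows. Each motif was searched on both strands, and no split by call was tested. TGACNNNGC, the core of the antioxidant response element, was in 23.2% of the LINC windows and 13.56% of all windows, with 7 of the 22 higher, 0 of the 14 lower and 12 of the 46 uncalled genes. It was in 2 of the 9 windows of the 10 largest rises. AGAACA, the half-site of the androgen and glucocorticoid receptors, was in 13.4% against 14.85% (3 higher, 3 lower and 5 uncalled). GCGTG, the core of the aryl hydrocarbon receptor element, was in 36.6% against 36.33% (11, 6 and 13 in the same order). CCAAT was in 42.7% against 35.7% (7, 8 and 20), TATAAA in 17.1% against 11.95% (3, 3 and 8) and the E-box CACGTG in 7.3% against 7.43% (2, 0 and 4). The E2F motifs TTTCCCGC and TTTGGCGC were each in 1 window or 1.2%, against 1.66% and 0.66%. A match gives letters in this window and shows no binding.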

How the data were processed

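RNA sequencing of LNCaP cells gave 6 libraries, 3 with DHT and 3 with DHT+WBM, grouped by sample title. The authors deposited 1 table of unnormalised counts of reads for each gene, beside its hg19 position, strand and length. The submitters' processing notes name edgeR 3.28.1, HTSeq 0.6.0, STAR 2.6.0 and bcl2fastq 2.18.0.12 and the build hg19. What each tool did, the annotation and the strand setting are not given in the sources. With about equal library totals, counting error is largest for genes near the threshold of 60 counts.

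The deposited counts went into edgeR 4.0.16 under R 4.3.3: filterByExpr (minimum count 10, minimum total 15; all 103 LINC genes passed), TMM factors of 0.979 to 1.02, and the quasi-likelihood F-test of DHT+WBM against DHT, two-sided, with Benjamini-Hochberg adjustment over 13466 genes. Higher and lower mean an adjusted p under 0.05. Levels are CPM as mean ± SD over 3 libraries, and intervals cover 95%. The fit was tested on simulated data. The LINC genes and role lists were chosen with earlier results of these data known. The genes named are the 10 largest rises and falls among called genes whose mean reached 1 CPM and whose groups were separate, the 6 of highest RPKM, up to 4 of each list by adjusted p, the 4 uncalled ones of highest CPM, the 3 on each side of the threshold, and neighbours of the rises and falls, of which 1 is not reported here; the other genes named were chosen after their values were seen. For overlaps, 34 genes spanning over 3 Mb were left out, a choice made after seeing the data. The 4691 genes with no count in any library were also left out of overlaps and head-to-head pairs. Replicate numbers were not used to pair libraries. Alternatives were other scaling factors and filters, DESeq2 1.42.0, limma 3.58.1 (voom), a replicate block, other thresholds and membership rules, and each library left out. Coordinates in hg19 and GRCh38.p14 were not converted.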

Additional observations from a re-analysis of the deposited data

How the results depend on the processing

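The numbers of LINC genes higher (25) and lower (17) stayed within 1.5 times under the scaling, filter and tool alternatives, with 22 to 28 higher and 12 to 19 lower. A 2-fold minimum left 8 higher, 7 lower and 768 of all genes, against 7837, and a summed count of at least 120 left 11 lower. Leaving out 1 library gave 23 to 28 higher and 14 to 18 lower. The median log2 fold change, -0.04, has no test and lay near 0 throughout: -0.0073 with upper-quartile factors, 0.0073 with library totals only, 0.00047 with the 1 CPM filter, 0.0403 at a summed count of 120, and -0.0405 to -0.00797 with 1 library left out. Scaling moved the median of all genes by at most 0.046. Replicate numbers were not treated as pairs, since same-numbered libraries had correlated deviations of only 0.0479, 0.0793 and 0.0211. With the replicate block 26 were higher, 18 lower and 8109 of all genes called.

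For 31 named LINC genes, 433 values over 14 settings were computed, of which 406 kept direction and call, 16 lost the call, 3 gained it and 8 changed sign, none of a called gene. The calls lost were of LINC01003, LINC00467 and LINC00174, and those gained of LINC00842 and LINC00116. These 31 were in part chosen for separate groups and a mean of at least 1 CPM. Outside them, LINC01124, LINC00319, LINC01465 and LINC00242 also lost their calls with DESeq2 or with 1 library left out. Among the 31 genes, no called gene changed sign. The changes of sign were in genes near 0: LINC00094 was at 0.0164 with upper-quartile factors and 0.0310 with library totals, LINC00665 at 0.00028 and LINC00674 at 0.0124 with library totals. With 1 library left out, LINC00094 ranged from -0.0482 to 0.00382, LINC00665 from -0.0841 to 0.00016, LINC00998 from -0.00797 to 0.0584 and LINC00992 from -0.2095 to 0.0490. The cause was not tested. With 1 CPM in at least 3 libraries, 80 of 103 LINC genes could be fitted. Depth limits the genes under 1 CPM, where the median SE was 0.32.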
